A study of Mus musculus with 4 samples.

Results

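The Ikaros, E-protein and Id genes of mouse Hoxb8 cells were compared between cells with an empty vector and cells expressing DNMT3A R882H. The set held 10 genes, chosen by gene family at a time when earlier results of these data were known, of 52636 gene lines in the count table. It comprised Ikzf1, Ikzf2, Ikzf3 and Ikzf5 of the Ikaros family, the E-protein genes Tcf3, Tcf4 and Tcf12, and the inhibitor genes Id1, Id2 and Id3. Each of the 10 symbols matched 1 Ensembl gene line.

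Ikaros proteins are zinc finger factors that pair with each other through C-terminal fingers and recruit chromatin remodelling and co-repressor complexes. They are known for guiding haematopoietic progenitors into the lymphoid lineages. E-proteins are basic helix-loop-helix factors that bind the E-box motif as dimers and switch on B- and T-lineage genes. Id proteins have the helix-loop-helix but no basic region, so an E-protein held by an Id protein does not bind DNA. The ratio of E-protein to Id is therefore commonly used to describe how free the E-proteins are to act.

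Of the 4 libraries, 2 came from Hoxb8 cells with the empty vector (EV) and 2 from Hoxb8 cells expressing DNMT3A R882H (R882H), a recurrent substitution of this DNA methyltransferase in acute myeloid leukaemia. The series asked, per its title, about heme synthesis and copper-dependent death in that leukaemia. All 4 are named as Hoxb8 cells. Forced Hoxb8, a homeobox gene, keeps mouse blood progenitors dividing in culture. The labels give neither the vector's promoter nor the number of clones, and replicates are not said to be separate cultures. The p-values therefore speak of the spread among these samples alone, which may be technical.

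Libraries held 5470330 to 5921985 counts. The 3′ tag protocol (QuantSeq) reads each transcript near its poly(A) tail, so levels in CPM (counts scaled to library size) need no correction for length. Dnmt3a had 264 and 270 counts in EV and 254 and 239 in R882H, which does not check the labels, since 3′ tags need not cover a transgene. The progenitor markers Cd34, Ptprc and Spi1 were present in every library. Hoxb8 itself had 25 and 44 counts in EV and 15 and 4 in R882H (−1.92 on the log2 scale, edgeR adjusted p = 0.000824, a call that ended without EV replicate 2). Hoxb8 passed the filter on low counts through EV only, the group where it was higher. The groups also differed in Y-linked transcripts: Ddx3y had 0 and 2 counts in EV and 65 and 41 in R882H, while Xist was counted in all 4 libraries (1438 to 1880 counts). This difference lies along the same line as the vectors, and the effects of the pair cannot be told apart. Whether both groups came from the same parental line was not tested.

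Of the lymphoid regulators, Tcf4 rose and Id1 fell in R882H, and no other passed the test. In all, 8 of the 10 genes passed the filter on low counts and 6 of these were not called, where called means an adjusted p under 0.05 in edgeR's quasi-likelihood test, adjusted over 11444 genes. Among all tested genes, 38.8% were called, 19.3% higher and 19.4% lower in R882H, so the 2 calls among the 8 were not above that background. Group ranges did not overlap for 4 of the 8, Ikzf1, Tcf4, Tcf12 and Id1, against 69.1% of all tested genes. The median log2 fold change was −0.04 over the 8 and 0.012 over all tested genes, and the median absolute log2 fold change was 0.21 against 0.36. Below, CPM values are means ± SD (n = 2 libraries per group), log2 fold changes are R882H over EV with their standard error, and intervals are 95% intervals from the edgeR fit.

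The order of levels in CPM was the same in both groups at its top. Ikzf1 stood highest, followed by Tcf4, and neither overlapped its next neighbour. In EV, Tcf12 and Tcf3 came next and their ranges overlapped. Ikzf5 and then Id1 followed, and the ranges of Ikzf2 and Id2 overlapped below 5 CPM. In R882H the ranges of Tcf3, Tcf12, Ikzf5, Id1, Id2 and Ikzf2 followed each other in that order without overlap. Some gaps were small, with the nearest libraries of Tcf3 and Tcf12 at 62.8 and 62.2 CPM. Those of Id2 and Ikzf2 stood at 2.46 and 2.34 CPM, from 14 counts each, so their order is within counting error. Ikzf3 and Id3 stood at the bottom in both groups with overlapping ranges.

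**Figure D1:**
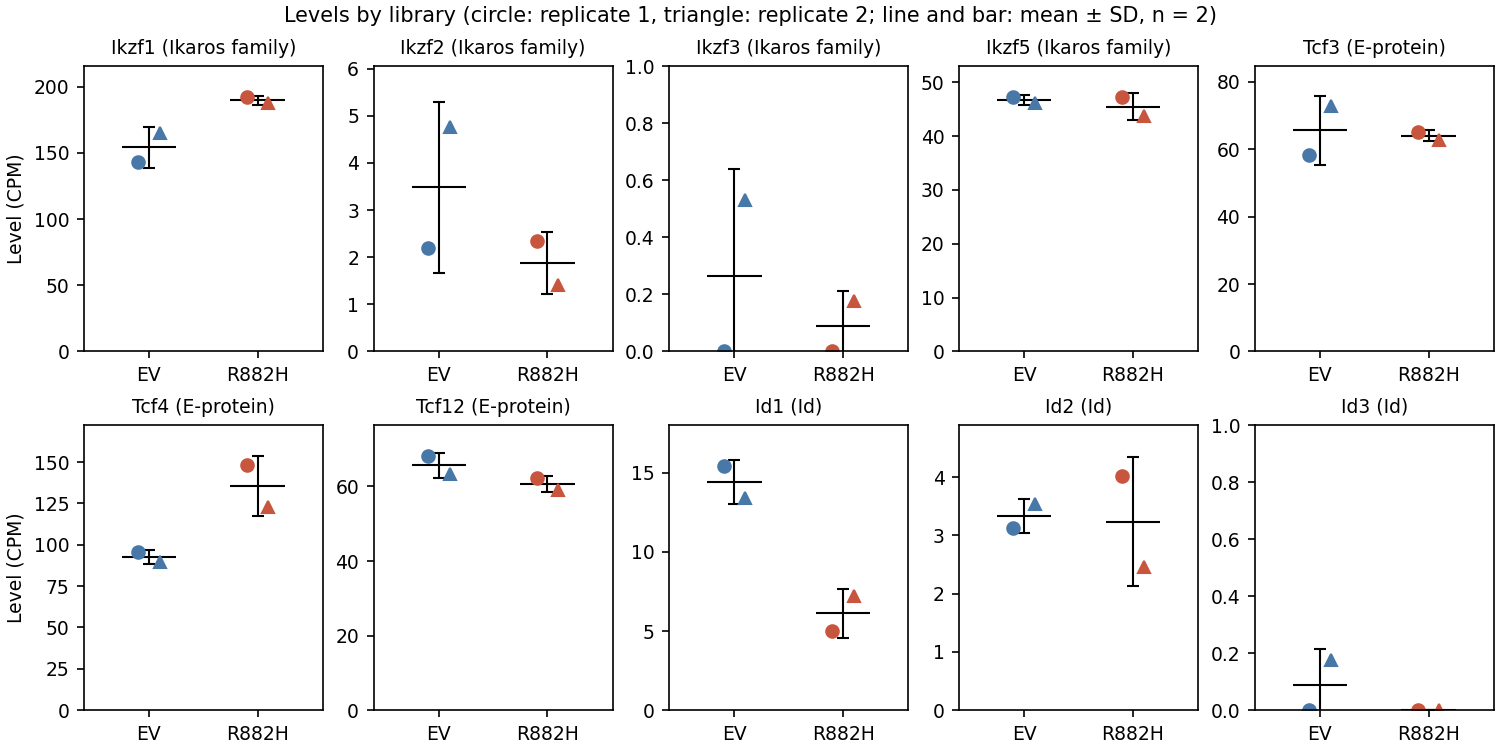
Level in CPM (y axis, from 0, a scale of its own for each gene) of the 10 genes in each library by group (x axis), with the mean and SD of 2 libraries. Tcf4 and Id1 have separate groups and were called; Ikzf1 has separate groups, with means of 154 and 189.7 CPM, and was not called; Ikzf3 and Id3 stay near 0.

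Within the Ikaros family, Ikzf1 held 74.3% and 76.3% of the counts in EV and 79.5% and 80.5% in R882H, and no member was called. Ikzf1 encodes Ikaros itself, the founding member, needed for normal lymphoid development (ENSMUSG00000018654, mm10 chromosome 11, 11685003 to 11772926). It had 781 and 935 counts in EV and 1148 and 1067 in R882H, or 154 ± 15.4 and 189.7 ± 3.38 CPM. Both R882H libraries lay above both EV libraries. The log2 fold change of 0.30 ± 0.13 (interval 0.03 to 0.57) missed the threshold after adjustment (edgeR adjusted p = 0.0695). It passed without EV replicate 2, the higher EV library, with 0.40 and an adjusted p of 0.0200; adjusted p was 0.0705 to 0.281 under the other alternatives. The short Ikaros isoforms that lack DNA-binding fingers arise by splicing inside the gene and cannot be told from the full form by 3′ tags.

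Ikzf5 encodes Pegasus, a distant family member that is expressed broadly (chromosome 7, 131388652 to 131410521). Its counts were 258 and 261 in EV and 282 and 249 in R882H, and the groups overlapped. The log2 fold change was −0.04 ± 0.15, with an interval of −0.34 to 0.26 (edgeR adjusted p = 0.858), and the value without R882H replicate 2 was 0.03. Its exons overlap those of Pstk and Gm44624, so its reads may include theirs.

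Ikzf2 encodes Helios, best known from regulatory T cells and stem cells (chromosome 1, 69531214 to 69687245). It was scarce, with 12 and 27 counts in EV and 14 and 8 in R882H. The EV libraries differed from each other more than the group means did, and the groups overlapped. Ikzf2 passed the filter through its EV counts only. The log2 fold change of −0.89 ± 0.47 (interval −1.83 to 0.06, edgeR adjusted p = 0.131) rested on EV replicate 2, without which it was −0.23. Ikzf3, which encodes Aiolos of maturing B cells (chromosome 11, 98464902 to 98546031), had 0 and 3 counts in EV and 0 and 1 in R882H and was not tested. Ikzf4, which encodes Eos and is no member of the set, had no counts in any library. By counting error alone, a library with none could still hold 3 counts of a gene, or 0.507 to 0.548 CPM at these depths.

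Of the E-protein genes, Tcf4 rose, while Tcf3 and Tcf12 were not called. Tcf4 encodes the E-protein that plasmacytoid dendritic cells depend on; it is not the Wnt effector Tcf7l2, which shares the alias (ENSMUSG00000053477, chromosome 18, 69343356 to 69689079). It had 520 and 506 counts in EV and 886 and 700 in R882H, or 92.3 ± 4.27 and 135.6 ± 17.9 CPM. Both R882H libraries were above both EV libraries, and R882H replicate 1 stood above replicate 2. The log2 fold change was 0.55 ± 0.13 (interval 0.28 to 0.83, edgeR adjusted p = 0.00125). Without R882H replicate 1 it was 0.42 and the call ended (adjusted p = 0.0922); adjusted p was 0.000258 to 0.00992 under the other alternatives.

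Tcf3, the E-protein gene whose loss blocks B-cell development at its start (ENSMUSG00000020167, chromosome 10, 80409514 to 80433647), had 318 and 413 counts in EV and 390 and 358 in R882H. The R882H values lay between the EV ones. The log2 fold change was −0.04 ± 0.14 (interval −0.32 to 0.25, edgeR adjusted p = 0.863), and it was above 0 once EV replicate 2 (0.13) or R882H replicate 2 (0.01) was left out. Its splice forms, which differ in the DNA-binding exon, share the 3′ end and were counted together. Tcf12, which encodes HEB, the E-protein prominent in early T cells (chromosome 9, 71842688 to 72111871), had 371 and 359 counts in EV and 372 and 337 in R882H. In CPM, its R882H libraries (62.2 and 59.2) lay just below its EV libraries (68.0 and 63.4). This was −0.11 ± 0.13 on the log2 scale (interval −0.39 to 0.16, edgeR adjusted p = 0.535).

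As a share of the E-protein counts in each library, Tcf4 held 43.0% (interval 40.2% to 45.9%) and 39.6% (36.9% to 42.3%) in EV. In R882H it held 53.8% (51.3% to 56.2%) and 50.2% (47.5% to 52.8%), and the groups did not overlap. Tcf3 held 26.3% and 32.3% in EV and 23.7% and 25.7% in R882H, and Tcf12 held 30.7% and 28.1% in EV and 22.6% and 24.2% in R882H. These exact binomial intervals cover counting error only. The shares are given without a test, and whether the 3 E-protein genes changed unequally was not tested.

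Among the Id genes, Id1 fell in R882H and the others were scarce in both groups. Id1 is a direct target of bone morphogenetic protein (BMP) signalling in many cells and restrains E-proteins in progenitors (ENSMUSG00000042745, chromosome 2, 152736251 to 152737410). It had 84 and 76 counts in EV and 30 and 41 in R882H, or 14.4 ± 1.41 and 6.11 ± 1.54 CPM. No R882H library reached an EV one. The log2 fold change was −1.24 ± 0.25 (interval −1.76 to −0.72, edgeR adjusted p = 0.000190), or 2.36-fold lower. It was called under every alternative run, between −0.99 without R882H replicate 1 and −1.50 without R882H replicate 2.

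Id2, which innate lymphoid and dendritic cells require (chromosome 12, 25093799 to 25097140), was near the filter with 17 and 20 counts in EV and 24 and 14 in R882H. Its groups overlapped, and the log2 fold change of −0.03 ± 0.40 had an interval of −0.86 to 0.79 (edgeR adjusted p = 0.957). That interval includes a change as large as that of Tcf4, so one of this size was not detectable at this depth. Leaving out EV replicate 2 (0.05) or R882H replicate 2 (0.29) turned the sign. Id3, which limits B- and T-cell expansion (chromosome 4, 136143497 to 136145755), had 1 count, in EV replicate 2, and was not tested. Id4, outside the set, had no counts.

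**Figure D2:**
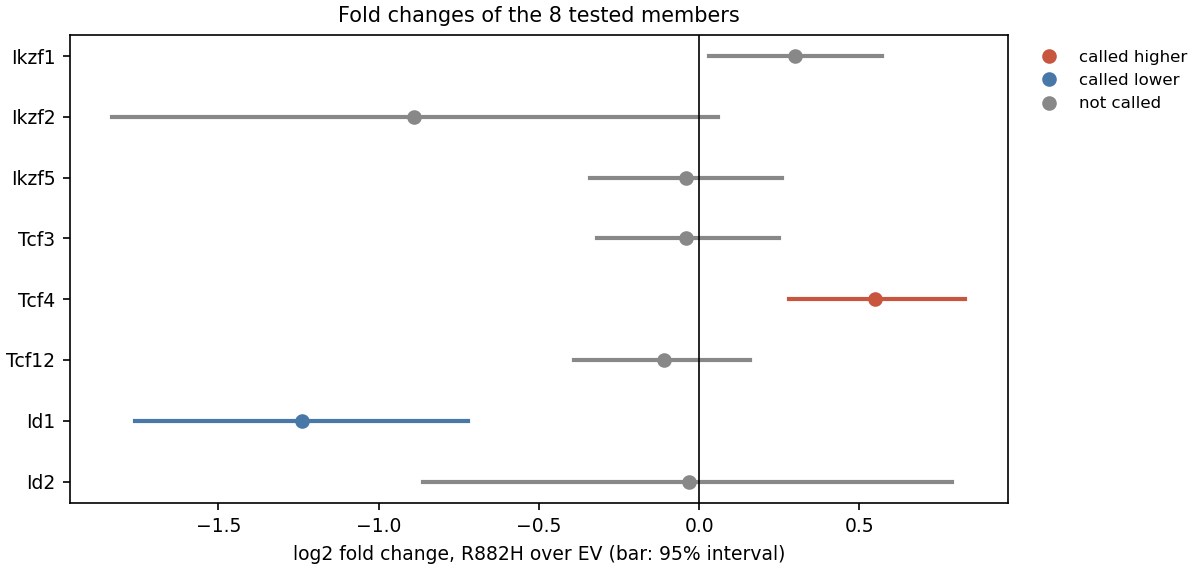
Log2 fold change, R882H over EV (x axis), of the 8 tested genes (y axis), with 95% intervals from the edgeR fit over 4 libraries. Tcf4 (0.55) lies right of 0 and Id1 (−1.24) left; Ikzf1 (0.30) has an interval just above 0 but missed the threshold after adjustment; Ikzf2 and Id2 have the widest intervals.

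Summed over the family, E-protein transcripts had 1209 and 1278 counts in EV and 1648 and 1395 in R882H, or 221.7 and 225.6 against 275.7 and 244.9 CPM. Id transcripts had 101 and 97 counts in EV and 54 and 55 in R882H, or 18.5 and 17.1 against 9.04 and 9.66 CPM. Both sums had separate groups. The count of E-protein tags per Id tag was 12.0 and 13.2 in EV and 30.5 and 25.4 in R882H. Id1 made up 83.2% and 78.4% of the Id counts in EV and 55.6% and 74.5% in R882H. Ikaros family transcripts summed to 192.7 and 216 CPM in EV and 242 and 232.6 CPM in R882H. Per E-protein tag there were 0.869 and 0.959 Ikaros tags in EV and 0.876 and 0.95 in R882H, with overlapping groups. These sums describe RNA; no p-value is given for them, and protein was not measured.

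**Figure D3:**
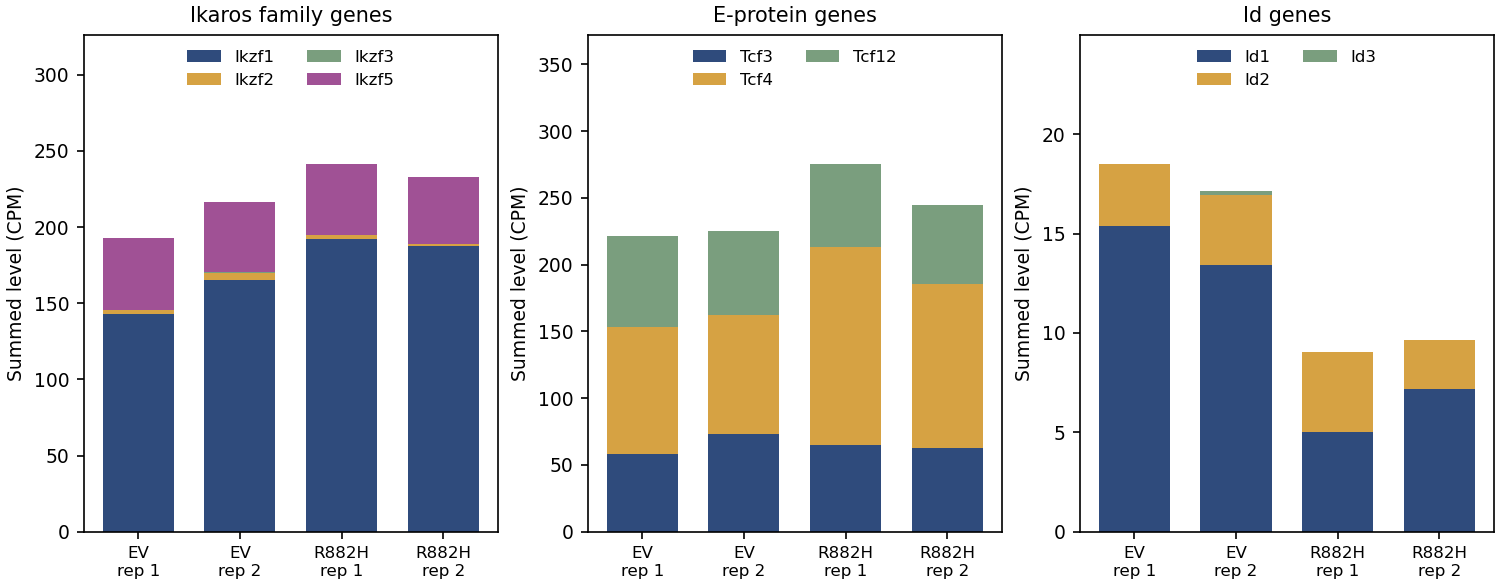
Summed level in CPM (y axis, from 0) of each family's genes in the 4 libraries (x axis), stacked by gene. The E-protein stack is 221.7 to 225.6 CPM in EV and 244.9 to 275.7 CPM in R882H with a thicker Tcf4 layer, and the Id stack drops from 17.1 to 18.5 CPM to 9.04 to 9.66 CPM.

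Upstream of the Id genes, 26 BMP and SMAD pathway genes were listed, of which 18 were tested, 1 rose and 3 fell (median log2 fold change 0.08). That was 22.2% called against 38.8% of all tested genes. Bmpr1a, a type I BMP receptor gene, fell from 230 and 238 counts in EV to 2 and 3 in R882H (−6.55 ± 0.32, edgeR adjusted p = 6.01e-18). The type II receptor genes Bmpr2 (−0.85 ± 0.19) and Tgfbr2 (−0.78 ± 0.24) fell on the log2 scale, and the call of Tgfbr2 ended in DESeq2 (adjusted p = 0.0801), without EV replicate 1 (0.0900) and without R882H replicate 2 (0.186). Bambi, a decoy receptor gene that dampens BMP and TGF-beta signals, rose from 4 and 0 counts to 112 and 92 (5.52 ± 0.46). The receptor-regulated SMAD genes behind Id1 had values of −0.84 ± 0.39 for Smad1 and −0.11 ± 0.13 for Smad5 and were not called (edgeR adjusted p = 0.0874 and 0.535). Their groups did not overlap. The interval was −1.63 to −0.04 for Smad1 and −0.37 to 0.15 for Smad5, and Smad1 passed the test without R882H replicate 2. Bmpr1a passed the filter through EV only and Bambi through R882H only, in each case the group where it was higher. Whether these receptor values bear on Id1 was not tested.

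E-proteins act with tissue-restricted partners, and these moved in both directions. Of 21 listed dimer partners and LMO complex genes, 14 were tested, 4 rose and 4 fell (median log2 fold change 0.04), 57.1% called against 38.8% of all tested genes. In DESeq2 2 rose and 2 fell. Tal1 and Lyl1, the partners of E-proteins in blood progenitors, were not called, with 0.04 ± 0.14 and 0.33 ± 0.13 (edgeR adjusted p = 0.830 and 0.0519); exons of Lyl1 overlap Nfix. Of the adaptors that bridge these dimers to LDB1, Lmo2 rose from 301 ± 6.10 to 407.7 ± 1.20 CPM (0.44 ± 0.13, adjusted p = 0.00795) and Lmo4 fell from 558 ± 55.3 to 183.7 ± 2.59 CPM (−1.60 ± 0.14). Lmo1, an adaptor known from T-cell leukaemia, had 2 counts in each EV library and 32 in each R882H library. Ssbp4, which encodes an LDB1 stabiliser, fell (−1.99 ± 0.14), as did the bHLH gene Ascl2 (−1.37 ± 0.40). Lmo2 lost its call without R882H replicate 1 (adjusted p = 0.0871) and without R882H replicate 2 (0.0759), and Ascl2 without R882H replicate 1 (0.0977) and in DESeq2 (0.0682). Lmo1 passed the filter through R882H only and Ascl2 through EV only.

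Ikaros works largely through co-repressor complexes such as NuRD, and their genes moved in both directions. Of 18 co-repressor genes that bind Ikaros proteins, 17 were tested, 7 fell and 2 rose (median log2 fold change −0.24, with 52.9% called against 38.8% of all tested genes). The remodeller gene Chd4, the main ATPase partner of Ikaros, had 2316 and 2823 counts in EV and 1829 and 1655 in R882H (−0.63 ± 0.13, edgeR adjusted p = 0.000314). Its relative Chd3 fell from 131 ± 6.01 to 64.4 ± 1.58 CPM (−1.02 ± 0.13), and the metastasis-associated subunit gene Mta3 fell from 56.2 ± 11.6 to 18.4 ± 4.26 CPM (−1.61 ± 0.18). Gatad2a fell too (−0.61 ± 0.13). Of the other NuRD genes, Mta1 (0.01), Mta2 (−0.02), Rbbp4 (0.03) and Rbbp7 (0.09) were not called. Neither were Gatad2b (−0.24), Mbd2 (0.34) and Mbd3 (−0.28). The histone deacetylase genes moved apart: Hdac1 fell (−0.65 ± 0.20, edgeR adjusted p = 0.0103) and Hdac2 rose (0.64 ± 0.13). The Hdac1 call ended in DESeq2 and on leaving out EV replicate 1 or R882H replicate 2. The co-repressor gene Ctbp1 rose (0.65 ± 0.13). Without R882H replicate 2, 4 of the 17 fell, and also 4 in DESeq2.

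Among other transcription factors of lymphoid development, Satb1, Bcl11a and Pax5 went from at most a few CPM to well above. Of 30 listed, 20 were tested, 9 rose and 5 fell, 70.0% called against 38.8% of all tested genes (median log2 fold change 0.28). Satb1, a chromatin organiser, had 21 and 15 counts in EV and 1144 and 961 in R882H (5.79 ± 0.20). Bcl11a, needed for early lymphoid cells, went from 1.44 ± 0.293 to 41.7 ± 1.54 CPM (4.84 ± 0.26). Pax5, the B-cell commitment factor, had none in EV and 102 and 61 in R882H, at least 51.8-fold higher against 3 counts over the EV group; its exons overlap 5730488B01Rik. Irf8 (2.54 ± 0.16) and Mef2c (1.19 ± 0.14) rose, and Gfi1 (−0.96 ± 0.14) and Zbtb7b (−1.26 ± 0.23), whose exons overlap A430072P03Rik and Gm15417, fell. Pax5 and Bcl11a passed the filter through R882H only. Tcf7 passed through EV only and fell (−2.59 ± 0.65), a call that ended without EV replicate 2 and without R882H replicate 1. Of the 17 that passed the filter through both groups, 7 rose and 4 fell.

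Textbook target genes of E-proteins and Ikaros were higher in R882H in most of the cases that could be tested. The list pools targets of both families and does not record whether a gene is activated or repressed by them. Of 31 listed, 18 were tested, 14 rose and 2 fell (median log2 fold change 1.40), 88.9% called against 38.8% of all tested genes. Of the 12 that passed the filter through both groups, 11 rose and 1 fell. Vpreb1, a component of the surrogate light chain of the pre-B receptor, rose from 17.8 ± 3.91 to 388 ± 14.6 CPM (4.45 ± 0.17, edgeR adjusted p = 1.94e-21). Vpreb3 (5.78 ± 0.22), Cd24a (6.55 ± 0.30), both through R882H only, and the heavy chain gene Ighm (2.43 ± 0.15) rose, as did the cell cycle inhibitor gene Cdkn1a (2.40 ± 0.17). The kinase gene Lck (−2.83 ± 0.43, through EV only) and the cell cycle inhibitor gene Cdkn2c (−0.84 ± 0.13) fell. Rag1, the recombinase gene, had 519 and 700 counts in EV and 1034 and 913 in R882H, and Igll1, the other surrogate light chain gene, had 1781 and 1828 against 4473 and 4703, so both transcripts were present in EV too (1.28 ± 0.14 for Igll1 on the log2 scale). Exons of Vpreb1 overlap Top3b and those of Rag1 overlap B230118H07Rik.

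The summed level of 9 B-cell markers was 57.8 and 62.8 CPM in EV and 248 and 227.7 CPM in R882H. Of these markers 4 were tested and these 4 rose, beside 38.8% called of all tested genes. Of the untested markers, Ms4a1 had 2 counts in EV replicate 1 alone, and Fcrla and Blk had none. Of 9 T-cell markers, 6 had no counts in any library, among them Cd3e, Cd3g, Cd4 and Cd8a, and Lck was the only one tested; it held 6.60 and 8.30 CPM of a summed level of 6.79 and 8.30 CPM in EV, and 1.17 and 0.878 CPM of 1.34 and 1.58 CPM in R882H. Of 9 basophil and mast cell markers 5 were tested, 4 rose and 1 fell (summed 111.5 and 128 CPM in EV, 493 and 485.5 CPM in R882H). Fcer1a, Mcpt4 and Tpsb2 were at 0. Of 8 megakaryocyte markers 4 were tested, 2 fell and 1 rose (1062 and 876 CPM against 28.8 and 23.5). Pf4 held 1033 and 844 CPM of the EV sums and 15.1 and 10.5 CPM of the R882H sums. Thy1, listed with the stroma markers, fell from 660 ± 62.9 to 9.64 ± 2.46 CPM, and 6 of the 8 stroma markers were at 0. Of 11 neutrophil lineage markers 5 were tested and 2 rose, Mpo (5.25 ± 0.17 on the log2 scale) and Ctsg (0.61 ± 0.14). Elane, Prtn3 and Csf3r were not called, and Ltf, Camp, Ngp, S100a9 and Ly6g were at 0. Their part in the values of Tcf4, Id1 and the target genes was not tested, and in bulk RNA a changed share of cells and a changed level per cell cannot be told apart.

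**Figure D4:**
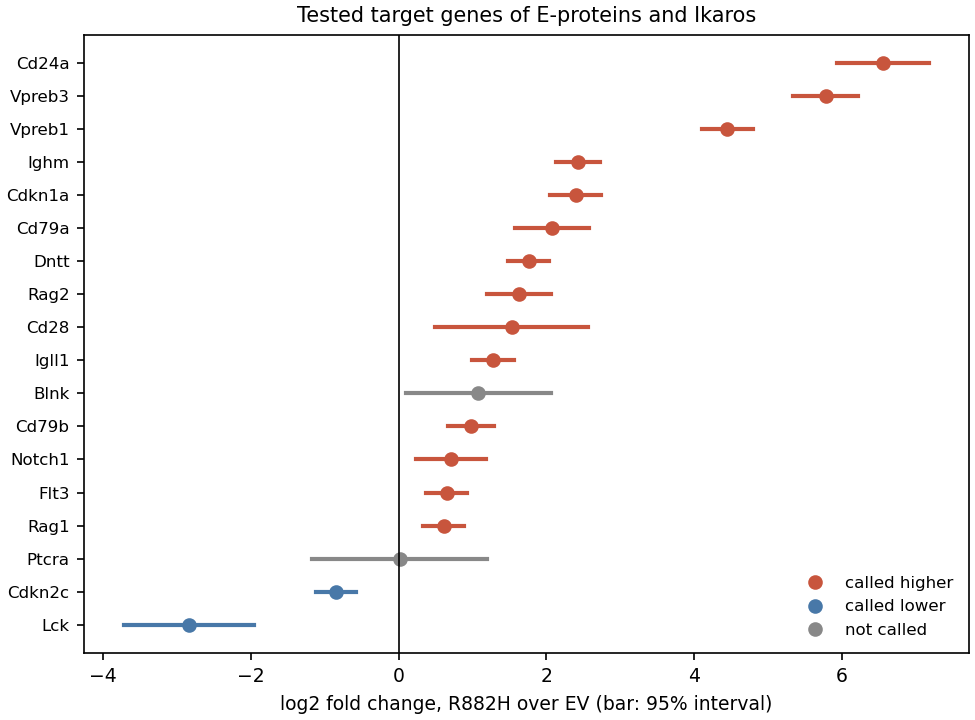
Log2 fold change, R882H over EV (x axis), of the 18 tested target genes of E-proteins and Ikaros (y axis), with 95% intervals from the edgeR fit over 4 libraries. The 14 called higher run from Rag1 (0.61) to Cd24a (6.55); Lck and Cdkn2c lie left of 0.

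As a description of sequence, the 250 bases before each RefSeq start (build GRCm38.p6) were searched on both strands for the E-boxes CAGCTG and CACCTG and for the Ikaros core TGGGAA. Of all 32851 windows, 27.7% held at least 1 of the E-boxes and 21.6% the Ikaros core. For the 14 target genes that rose, 10 had a window; 5 of their 11 windows held an E-box and 2 the Ikaros core. Over the whole target list it was 13 and 9 of 26 windows. Of the set itself, Ikzf1, Ikzf5, Tcf3, Tcf12, Id2 and Id3 had 9 windows. Of these windows, 1 of Id2 and 1 of Tcf12 held CAGCTG and none held the Ikaros core. Tcf4, Id1, Ikzf2 and Ikzf3 had no window among those searched. Whether the bases before their starts hold these motifs was therefore not tested, the called members Tcf4 and Id1 included. The windows of Igll1 (chr16:16863986-16864235, minus strand) and Rag1 (chr2:101649533-101649782, minus strand) are shown because they belong to target genes that rose, hold E-boxes and overlap no annotated exon. They run 5′ to 3′ up to the start, with the E-boxes in capitals on either strand.
Igll1: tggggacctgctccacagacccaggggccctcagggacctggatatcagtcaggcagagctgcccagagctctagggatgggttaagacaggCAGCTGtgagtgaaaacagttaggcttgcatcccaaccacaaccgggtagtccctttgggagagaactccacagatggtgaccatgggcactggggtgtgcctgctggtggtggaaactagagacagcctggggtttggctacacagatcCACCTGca
Rag1: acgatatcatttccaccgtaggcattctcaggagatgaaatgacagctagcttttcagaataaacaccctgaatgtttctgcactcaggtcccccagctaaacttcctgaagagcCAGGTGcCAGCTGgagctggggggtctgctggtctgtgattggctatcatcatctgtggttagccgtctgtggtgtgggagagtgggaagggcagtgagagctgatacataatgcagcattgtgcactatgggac
Each window holds 1 CAGCTG and 1 CACCTG, the latter read as CAGGTG in Rag1, where it lies on the opposite strand. The Rag1 window also holds the Ikaros core. A match is a run of letters and not a measured binding site.

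**Figure D5:**
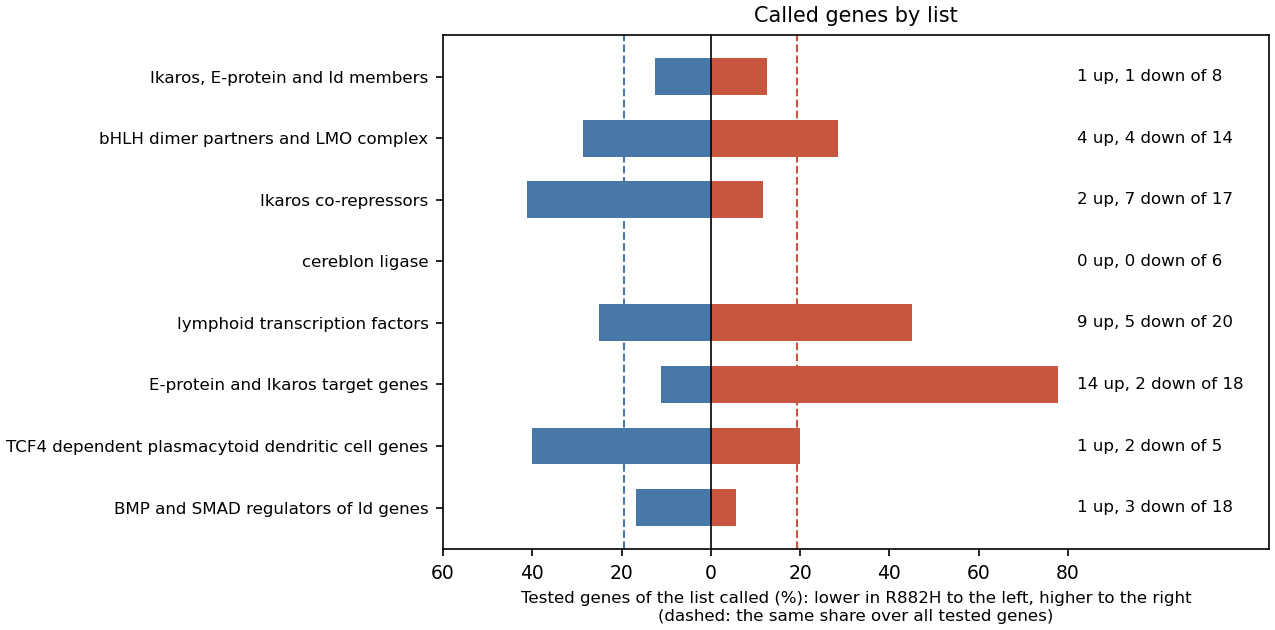
Share of each list's tested genes called lower (left) or higher (right) in R882H (x axis, percent), by list (y axis), with counts at the right and the shares over all tested genes as dashed lines. The 8 tested set members lie inside both dashed lines, and the target genes reach furthest to the right, with 14 of 18 higher.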

How the data were processed

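Poly(A) RNA of 4 Hoxb8 libraries was read with a 3′ tag kit, per the labels' protocols. The authors deposited raw counts per Ensembl gene, and the table has 1 column per library. The submitters' processing notes name the build mm10 and, without roles, limma 3.48.3, edgeR 3.34.0, Subread 2.0.0 with featureCounts, HISAT2 2.0.4, cutadapt 1.14 and bcl2fastq 2.17.1.14. How strand and multi-mapping reads were handled, and the annotation, is not given in the sources used here. Of 52636 lines, 52403 matched a symbol through GENCODE M21, which also gave positions and exon overlaps with genes of at least 10 counts.

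Groups came from the sample titles. The test was that of edgeR 4.0.16, under R 4.3.3 (TMM, filterByExpr, glmQLFit with robust estimation, glmQLFTest, Benjamini-Hochberg over 11444 genes). CPM uses TMM-scaled sizes. Standard errors were derived as |log2 fold change| / sqrt(F), and intervals use the fit's total degrees of freedom. The test was checked on simulated counts. Alternatives were DESeq2 1.42.0, other scalings and filters, robust=FALSE, a replicate block, genes without exon overlap, and leaving out each library.

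Members and the 9 gene lists, the set itself among them, were chosen with earlier results of these data known. All members are named; from other lists, up to 5 called genes with the smallest p and up to 2 moving against the majority, or without calls the 2 with most counts; from marker lists, abundant and defining genes. Beyond that rule, Smad1, Smad5, Tal1, Lyl1, Chd4, Mta1, Mta2, Rbbp4, Rbbp7, Gatad2b, Mbd2, Mbd3, Hdac1, Tcf7, Rag1, Igll1, Crbn and Irf7 were named after their values were seen. So were the progenitor markers Ptprc, Kit and Cebpa.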

Additional observations from a re-analysis of the deposited data

How the results depend on the processing

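The Id1 call held under all 12 alternatives and the Tcf4 call under all except leaving out R882H replicate 1 (log2 fold change 0.42), which left 0 members called higher; without EV replicate 2, Ikzf1 (0.40) joined Tcf4, so 2 were higher. With 1 library of each group left out in turn, log2 fold changes ran from 0.20 to 0.40 for Ikzf1, 0.42 to 0.70 for Tcf4, −0.08 to 0.03 for Ikzf5, −0.19 to 0.13 for Tcf3 and −0.42 to 0.29 for Id2, the last 3 of which changed sign; the lone library of a group is then assumed to vary like the other group. Over all genes, those fits called 1508 to 2065 higher and 1446 to 2168 lower against 2213 and 2222, and DESeq2 called 1401 higher and 1517 lower. For the dimer partners they called 1 to 4 higher and 2 to 3 lower (DESeq2 2 and 2), for the co-repressors 4 to 6 lower (DESeq2 4), for the plasmacytoid dendritic cell genes 0 to 1 higher (DESeq2 0) and for the cereblon ligase 0 to 1 higher. Without genes whose exons overlap another, 3 lymphoid factors fell in place of 5, since Gfi1 and Zbtb7b were not tested. The causes of the other changes were not tested. Ddb1 ran from −0.23 to 0.08, changing sign without EV replicate 2 (0.08) and without R882H replicate 1 (0.03). Replicate numbers are shared by the groups, and the deviations of same-numbered libraries had a correlation of −0.00261 over the tested genes. Whether same-numbered libraries shared a preparation was not tested. With the replicate block, 2196 genes were higher and 2229 lower, and Tcf4 and Id1 kept their calls (0.55 and −1.24). Scaling moved the median of all genes by at most 0.017 (log2). The low counts of Id2 and Ikzf2 limit what their intervals can show.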

Other observations

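Plasmacytoid dendritic cells depend on Tcf4, and of 15 other genes listed for them 5 were tested, 1 rose and 2 fell, beside 38.8% called of all tested genes. Of the 4 that passed the filter through both groups, 1 rose and 1 fell. Bst2, a surface antigen gene, fell from a mean CPM of 46.1 ± 4.22 to 25.5 ± 6.44 (SD, n = 2), or by 0.86 ± 0.17 on the log2 scale (edgeR adjusted p = 0.000150). Pacsin1, which encodes an endocytic adaptor, fell from 28 and 33 counts to 5 and 5 (−2.65 ± 0.47), and passed the filter through EV only. Ptprs, a receptor phosphatase gene, rose (0.36 ± 0.13, adjusted p = 0.0312), a call that ended in DESeq2 (adjusted p = 0.127) and on leaving out EV replicate 1 (0.114), R882H replicate 1 (0.217) or R882H replicate 2 (0.0817). Irf7 was not called (0.06 ± 0.17), and exons of Irf7 overlap Phrf1. The defining genes Siglech, Klk1 and Ly6d had no counts in any library.

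The ligase through which thalidomide analogs mark human Ikaros and Aiolos for destruction was expressed in both groups, and none of its 6 tested genes was called by edgeR or DESeq2, beside 38.8% of all tested genes called by edgeR. At an unadjusted p under 0.05 in edgeR it was 1, Rbx1 (unadjusted p = 0.0280). The substrate receptor gene Crbn had 115 and 104 counts in EV and 112 and 84 in R882H, with overlapping groups (−0.23 ± 0.19 on the log2 scale, adjusted p in edgeR 0.359), and its exons overlap Trnt1. Ddb1 had −0.08 ± 0.14 and Rbx1 0.33 ± 0.14 (edgeR adjusted p = 0.684 and 0.0672), and Rbx1 passed the test without EV replicate 1 (0.55).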
